A study of Mus musculus with 24 samples.

Results

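Chromatin accessibility around 10 regulator and marker genes of the trophoblast was described from ATAC-seq peak lists of mouse embryonic stem cells. The genes were Cdx2, Elf5, Tfap2c, Tfap2a, Gata3, Gata2, Hand1, Krt8, Krt18 and Tead4, taken by name from 55413 genes of the GENCODE vM21 basic annotation on 21 chromosomes. All 10 were found. They were listed by name as genes that stem cells keep silent with the help of the NuRD complex, of which Chd4 is the motor subunit. For each gene in each library, 3 quantities were read: the bases within 1 kb of any annotated start that lay under a peak, and the number of peaks in the gene body with 50 kb either side, called the locus below, and the bases of the locus under peaks.

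All 24 libraries came from the E14 line carrying CTCF fused to an auxin-inducible degron (genotype CTCF AID), in which adding the auxin IAA leads to loss of the CTCF protein. They formed 12 groups of 2. In serum-free medium, a line labelled overexpressed control was taken either untreated or with IAA for 12 h, and 2 further lines, overexpressing wild type CTCF or mutated CTCF, only with IAA for 12 h. The labels do not name the mutation. In the Chd4 and the Chd8 set, all without IAA, cells with the hairpin shluci were the reference for cells with shRNA1 or shRNA2. In the serum set, CTCF AID cells labelled as in serum were taken either untreated or with IAA for 12 h. The growth protocol, which names LIF, PD0325901 and CHIR99021, describes serum-free medium for every sample. The labels do not say whether the 2 libraries of a group came from separate cultures, so the spread between them may be technical. A peak list holds no transcript level, so neither the knockdown of Chd4 or Chd8 nor the expression of the 10 genes was measured. The CTCF protein was not measured either, and IAA on cells without the degron was not analysed here.

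The trophoblast is the outer lineage of the early embryo, which forms the placenta. In the outer cells of the embryo TEAD4, with its partner YAP, activates Cdx2 and Gata3, and CDX2, ELF5, EOMES and TFAP2C then hold the trophoblast stem cell state. Embryonic stem cells normally do not enter this lineage. NuRD couples the ATP-dependent remodeller Chd4 to the histone deacetylases HDAC1 and HDAC2 and is known for restricting lineage genes in stem cells, and loss of its subunits has been linked to trophoblast gene expression. Chd8 is a related remodeller that is known to bind CTCF.

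The lists held between 59786 and 166697 peaks and carried no read counts, so the depth of a library is unknown. Within each library set, lists were ranked by the authors' -log10 p and shortened to the length of the shortest one in the set. Peaks of the Chd4 and Chd8 sets were narrow, with a median width of 102 to 146 bp and 81 to 138 bp, against 343 to 456 bp in the CTCF lines. The lists of the Chd4 set fell by replicate number into long (135583 to 141742 peaks) and short ones (80619 to 93091 peaks). Of 12 embryonic stem cell marker genes, 11 had a peak within 1 kb of a start in every library of the CTCF lines. The serum set had 10 to 11, the Chd8 set 9 to 11 and the Chd4 set 3 to 9. Of 8 fibroblast or feeder markers the range over all sets was 2 to 5, and of 8 primitive endoderm markers 5 to 8. A two-sided exact permutation test cannot give a p below 0.333 for 2 libraries against 2, or below 0.0667 for 2 against 4. No such test can therefore pass 0.05, and no model was fitted to the peak numbers. A gene was instead called higher or lower when all treated libraries lay above or below all reference libraries, read against the share of 21938 protein-coding genes that did the same.

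Shown first are 4 stretches: the window at a start that all libraries called, the 2 strongest windows lost with the Chd4 hairpins and the strongest gained one. Windows of fixed width were placed around peak summits of all lists, and 268 windows called by at least 2 libraries fell in the 10 loci. Each stretch is the central 300 bases of such a window, from GRCm38 as given by RefSeq, plus strand, outside annotated exons. Capitals mark the CTCF consensus (14 bases, at most 1 mismatch) or 1 of 5 short motifs searched on both strands: GGAATG for TEAD factors, AGATAA for GATA factors, GCCNNNGGC for AP-2 factors, the octamer ATGCAAAT and GGGCGTGG for KLF factors. The central 300 bases of 233706 windows genome-wide held these in 18.5%, 11.7%, 11.1%, 2.75% and 2.74% of cases, and those of the 268 windows in 19.4%, 11.9%, 17.5%, 1.49% and 1.87%. Distances are negative upstream of a start. The first stretch, chr2:9879261-9879560, lies -0.811 kb from the Gata3 start of the basic annotation, which is inside the gene body, and was called in all 24 libraries. The second, chr6:88189561-88189860, lies -4.18 kb from a start of Gata2 in an intron of Gm38708, and the third, chr2:172607832-172608131, lies 57.0 kb downstream of a start of Tfap2c. Both were called with shluci and not with either Chd4 hairpin. The fourth, chr2:9820748-9821047, lies 57.7 kb downstream of the Gata3 start and was called with both Chd4 hairpins and not with shluci.
Gata3 start: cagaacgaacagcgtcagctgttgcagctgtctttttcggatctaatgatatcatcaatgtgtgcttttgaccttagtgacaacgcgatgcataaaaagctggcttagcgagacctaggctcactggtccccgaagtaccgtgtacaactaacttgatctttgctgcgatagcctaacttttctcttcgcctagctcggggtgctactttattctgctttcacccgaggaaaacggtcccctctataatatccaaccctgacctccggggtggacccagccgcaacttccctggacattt
Gata2 upstream: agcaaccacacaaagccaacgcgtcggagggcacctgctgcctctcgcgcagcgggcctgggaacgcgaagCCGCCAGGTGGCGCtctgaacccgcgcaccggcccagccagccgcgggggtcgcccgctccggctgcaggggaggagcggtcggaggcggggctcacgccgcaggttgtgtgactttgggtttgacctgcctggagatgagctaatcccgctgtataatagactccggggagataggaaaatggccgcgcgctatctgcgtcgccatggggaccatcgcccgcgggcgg
Tfap2c downstream: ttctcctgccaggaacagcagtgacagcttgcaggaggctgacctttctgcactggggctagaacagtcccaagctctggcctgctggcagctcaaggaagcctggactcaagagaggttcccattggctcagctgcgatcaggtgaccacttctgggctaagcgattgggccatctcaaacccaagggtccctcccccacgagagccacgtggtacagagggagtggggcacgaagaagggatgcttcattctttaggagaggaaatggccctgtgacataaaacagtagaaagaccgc
Gata3 downstream: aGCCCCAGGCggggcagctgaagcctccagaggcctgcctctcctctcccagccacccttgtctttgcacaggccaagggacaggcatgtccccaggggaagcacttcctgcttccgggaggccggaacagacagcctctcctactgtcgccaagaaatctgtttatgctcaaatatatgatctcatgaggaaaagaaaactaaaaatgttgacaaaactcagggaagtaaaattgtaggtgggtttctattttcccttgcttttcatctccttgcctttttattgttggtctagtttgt
No capital in a stretch says only that these letters are not in these bases. Cut into 10 words of 30 bases, the 4 stretches held only words that occur once in the genome.

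Across all libraries the starts of Gata3 and Tead4 were the most regularly accessible of the 10. Gata3, a zinc finger activator of trophoblast genes, and Tead4, the DNA-binding partner of YAP, had a peak within 1 kb of a start in 24 of 24 libraries, as did 5269 of 21938 protein-coding genes. Tfap2c and Krt18 followed with 23, Tfap2a with 22, Elf5 with 21, Hand1 with 19, Cdx2 with 18, Gata2 with 15 and Krt8 with 11. In the 8 libraries of the CTCF lines all 10 genes had such a peak, against 69.0% to 70.4% of protein-coding genes. The serum set had 6 to 10, the Chd8 set 7 to 9 and the Chd4 set 4 to 8 of the 10. Krt8, a keratin of simple epithelia, had a peak at its start in 0 of 6 Chd8 libraries and in 1 of 6 Chd4 libraries. The count of 2 genes in every library rested on the distance and list length, and was 4 with lists at their deposited length, 1 within 500 bp of a start and 0 among peaks whose -log10 q reached 10.

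The start peaks differed in strength. The best start peak of Gata3 ranked between percentiles 96.0 and 99.0 of its list by the authors' -log10 p in the CTCF lines, between 96.1 and 99.6 in the Chd8 set and between 87.2 and 91.8 in the serum set. In the Chd4 set it ranged from 45.6 to 99.3. That of Tead4 ranked between 89.5 and 96.8 in the CTCF lines and between 31.1 and 96.4 in the Chd4 set. In the CTCF lines Cdx2, the homeobox regulator of the trophectoderm, ranked between 46.9 and 62.7, and Elf5, an ETS factor of trophoblast stem cells, between 8.83 and 54.3. Both lay in the middle or lower part of those lists, in which Gata3 and Tead4 lay near the top. In the Chd4 set Elf5 ranked between 56.0 and 85.4 and Cdx2 had 1 value, 1.75. Within the shorter serum lists Cdx2 ranked between 72.5 and 81.5 and Tead4 between 79.7 and 92.2. Ranks were taken in the deposited lists, whose lengths also differed within a set. Ranks from lists of different length cannot be compared. CpG content (observed over expected) was taken in 1 kb at the 5′ end of the gene model. At Gata3 that end is not the start whose peak is ranked here. The content was above the median of coding genes, 0.552, in 5 of 10, with Elf5 lowest at 0.193 and Gata2 highest at 0.767.

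**Figure D1:**
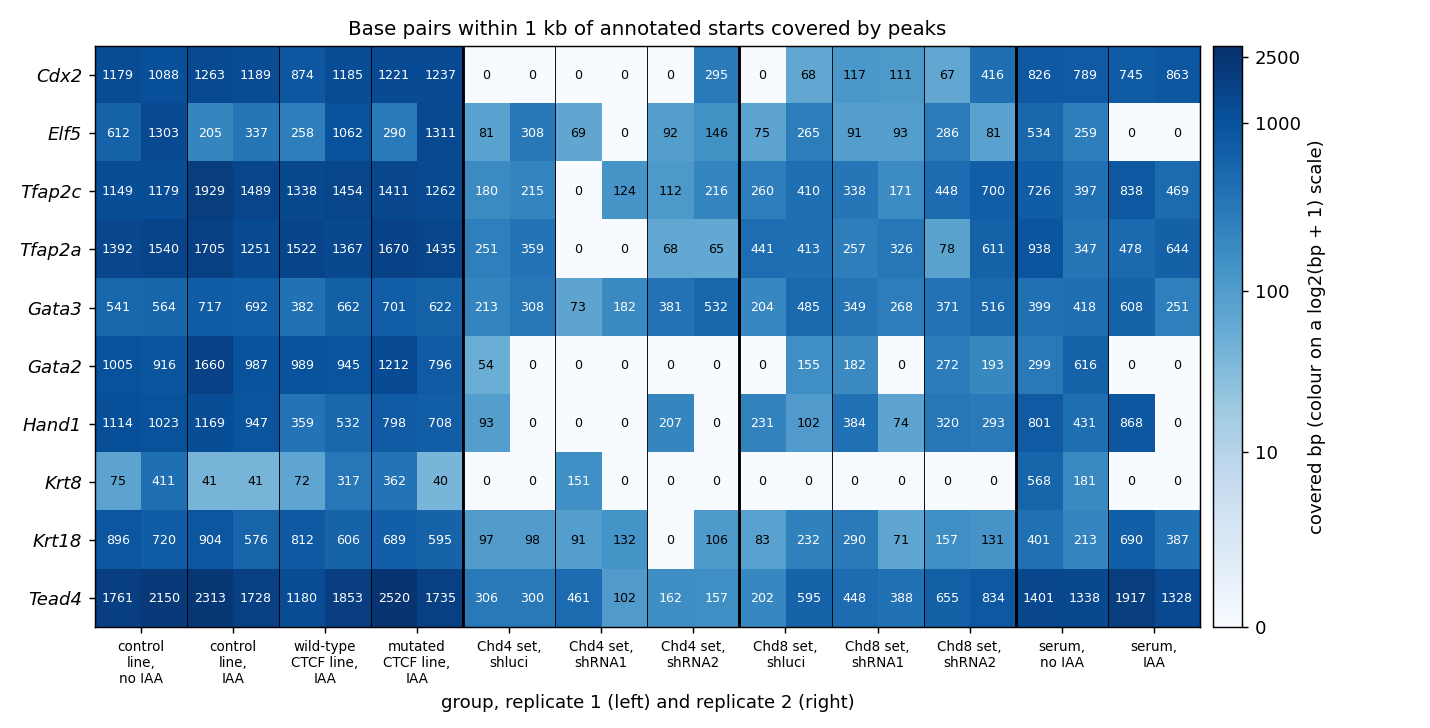
Bases within 1 kb of the annotated starts that lay under peaks, for the 10 genes (rows) in the 24 libraries (columns, 2 per group, thick lines between library sets); the number in each cell is the value in bp and the colour follows log2(bp + 1). Elf5 and Krt8 read 0 in both serum libraries with IAA, and Cdx2 reads 0 in 5 of the 6 Chd4 libraries against 874 to 1263 bp in the 8 libraries of the CTCF lines.

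Knockdown of Chd4 was followed by fewer called peaks around 7 of the 10 genes in lists of equal length, a count that other settings lowered to 3 or 4. The number of peaks in the locus was lower in all 4 hairpin libraries than in both shluci libraries at 7 genes and higher at none. Over protein-coding genes 25.2% were lower and 7.29% higher. The count of 7 lower genes was 4 with lists at their deposited length, where 16.4% of genes were lower, 3 among peaks whose -log10 q reached 10, where 38% were lower, and 3 with 25 kb either side, where 20% were lower. Among the 10209 genes whose shluci mean lay in the range of the 10 genes, from 7 to 22 peaks, 40.2% were lower and 4.3% higher. The median ratio of hairpin to shluci was 0.440 over the 10 genes, 0.708 over those 10209 genes and 0.8 over all genes tested. Summed over the 10 loci, shluci had 105 and 108 peaks, shRNA1 64 and 68, and shRNA2 57 and 77, so the groups did not overlap. The loci of Krt8 and Krt18, both among the 7 lower genes, share 76.3 kb, and peaks there count for both genes in these sums. The bases under peaks in the locus were lower at 8 genes, all but Cdx2 and Gata3, and higher at none. Over coding genes 53.3% were lower and 4.47% higher, and among those in the range of the 10 genes 73.3% and 0.879%. In bulk libraries, fewer cells with an open site and less access per cell cannot be told apart.

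Peak numbers were lower with both hairpins at Hand1, Gata2 and Tfap2a. Hand1, a basic helix-loop-helix factor needed for giant cells, had 7 and 7 peaks with shluci, 4 and 3 with shRNA1 and 1 and 1 with shRNA2. Gata2, which drives genes of the trophoblast giant cells and of blood, had 8 and 7 with shluci, 2 and 3 with shRNA1 and 2 and 5 with shRNA2. Tfap2a, an AP-2 factor, had 11 and 12 with shluci, 6 and 1 with shRNA1 and 7 and 3 with shRNA2. In each of these 3 loci every hairpin library lay below both shluci libraries. The hairpin mean was 32.1% of the shluci mean at Hand1, 40.0% at Gata2 and 37.0% at Tfap2a.

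In the keratin pair too, every hairpin library lay below both shluci libraries. Krt18 had 10 and 9 peaks with shluci, 3 and 5 with shRNA1 and 0 and 4 with shRNA2. Krt8, which pairs with Krt18 in the filaments of simple epithelia, had 8 and 6, then 3 and 5, and 1 and 4. The starts of the 2 genes lie 23698 bp apart and their loci share 76.3 kb, so these are not independent observations. The Krt18 ratio lay at percentile 3.25 and the Hand1 ratio at percentile 3.44 of the 10209 genes.

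The other 5 genes were mixed. Tfap2c, an AP-2 factor that is also active in germ cells, had 12 and 12 peaks with shluci, 3 and 3 with shRNA1 and 6 and 8 with shRNA2. Tead4 had 22 and 22, then 20 and 15, and 15 and 17, a smaller change at percentile 57.0 of the 10209 genes. Both lay below shluci in every hairpin library. Cdx2 had 9 and 9 with shluci, 3 and 7 with shRNA1 and 4 and 12 with shRNA2, so the groups overlapped. Elf5 had 8 and 10, then 7 and 10, and 10 and 8. Gata3 had 10 and 14, then 13 and 16, and 11 and 15, with a hairpin mean of 13.8 ± 2.22 (SD, n = 4) against 12.0 ± 2.83 (SD, n = 2). At these last 3 genes the groups overlapped. Compared within replicate number, Gata3 was higher each time (10 against 13 and 11, and 14 against 16 and 15), and the replicate block therefore counted 1 higher gene.

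**Figure D2:**
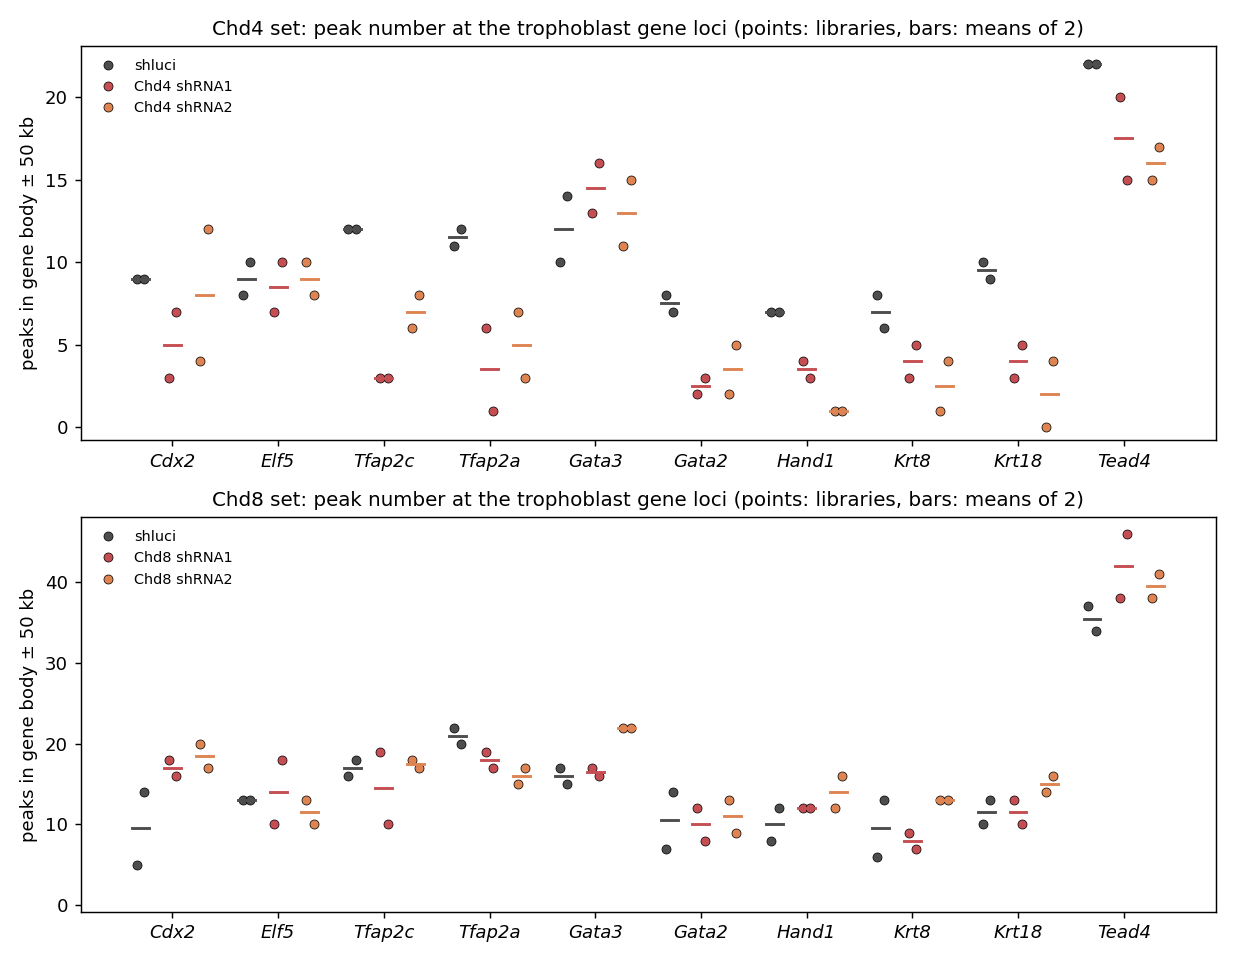
Number of peaks in the gene body with 50 kb either side, for the 10 genes in the Chd4 set (top) and the Chd8 set (bottom); points are libraries and bars the means of 2. With Chd4 hairpins Hand1 falls from 7 and 7 peaks to between 1 and 4, whereas Gata3 stays between 11 and 16, and with Chd8 hairpins Cdx2 lies between 16 and 20 against 5 and 14.

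The lower peak numbers moved with properties of the whole lists. The mean locus peak number over protein-coding genes was 7.37 and 7.59 with shluci and 5.65 to 6.34 with the hairpins, at equal list length. The median peak width was 134 and 146 bp against 102 to 112 bp, and the share of protein-coding genes with a peak at a start was 54.0% and 54.9% against 40.1% to 48.0%. Of the 12 embryonic stem cell marker genes 11 were lower and 0 higher, with a summed peak number of 218 to 221 against 102 to 153. Of the 8 fibroblast or feeder markers 2 were higher and 0 lower, with a sum of 25 to 29 against 39 to 44, and of the 8 primitive endoderm markers 2 were higher and 0 lower, with a sum of 58 to 75 against 63 to 71. The part of these in the result was not tested. Within the long lists (libraries numbered 1) 8 of the 10 genes were lower, against 47.9% of coding genes, and within the short lists (numbered 2) 7 were, against 43%. Gata3 was higher in each, against 18.8% and 20.8%, in a split chosen after the data were seen. Without shluci replicate 2, 1 gene was higher, against 12.6%.

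Other genes of these pathways were counted in the same way. Of 20 other trophoblast genes, such as Eomes and Gcm1, 7 were lower and 0 higher, with a median ratio of 0.740. Of 12 genes of the TEAD-YAP pathway 5 were lower and 0 higher, with a median ratio of 0.822, and of 13 NuRD subunit genes 6 were lower and 0 higher, with 0.671. Over all genes 25.2% were lower with a median ratio of 0.8, and over those in the range of the 10 genes 40.2% with 0.708.

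Peaks at the starts themselves were neither gained nor lost with Chd4 knockdown at any of the 10 genes by the rule of all hairpin libraries against both shluci libraries, against 0.668% gained and 3.14% lost of the genes with a start peak in the set. The covered bases were lower at 1 gene, Tfap2a, and higher at none, against 36.2% and 1.62% of coding genes, or 19.9% and 2.48% of those with a shluci value in the range of the 10 genes. Tfap2a had 251 and 359 bp with shluci, 0 and 0 with shRNA1 and 68 and 65 with shRNA2. Gata3 had 213 and 308 bp with shluci, 73 and 182 with shRNA1 and 381 and 532 with shRNA2, so the 2 hairpins lay on opposite sides of shluci. Taken alone, shRNA1 was lower at 45.7% of coding genes and shRNA2 higher at 4.87%. Cdx2 had 0 bp in 5 of the 6 libraries and 295 bp in the last, with shRNA2.

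Window by window, 13 of the 154 windows called in the Chd4 set were lost and 3 were gained, against 4.73% and 1.98% of windows genome-wide. Of the 64 windows that both shluci libraries called, the lost ones made up 20.3%, against 14.2% genome-wide. All 13 lost windows were called in all 8 libraries of the CTCF lines, as were 79.7% of the windows lost genome-wide, and 12 of them in at least 1 of the 2 shluci libraries of the Chd8 set, against 88.1%. Among windows that both shluci libraries and all 8 CTCF line libraries called, 21.3% of 61 were lost in the 10 loci and 13.0% genome-wide. Without shluci replicate 1 the number lost was 28, and without shluci replicate 2 it was 24. It was 4 among peaks whose -log10 q reached 10 and 8 with 25 kb either side. Window counts with a library left out follow a looser rule, here and below, and no genome-wide share was computed for them. None is given either, here and below, for window counts under the other settings, so these counts cannot be read against a background.

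Of the lost windows, 3 each lay at Tfap2c, Tfap2a and Gata2, and none lay at Elf5, Gata3 or Tead4. Of the 13, 8 were intergenic, 4 intronic and 1 exonic, and 1 lay within 1 kb of a start, at Tfap2a. The strongest was the Gata2 window at -4.18 kb printed above, the only one of the 13 with the CTCF consensus. It ranked at percentiles 70.8 and 89.7 of the shluci lists, was absent from the 4 hairpin lists and lay between 83.9 and 94.4 in the CTCF lines. The Tfap2c window at 57.0 kb ranked at 58.9 and 78.6 with shluci and between 79.8 and 92.0 in the CTCF lines. Further windows 16.6 kb and 43.6 kb downstream of a Tfap2c start were lost. The third strongest lay -8.16 kb from the start of Cdx2 in an exon of Urad.

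The 3 gained windows were a share of the 154 that did not exceed the genome-wide 1.98%, and 0 were gained among peaks whose -log10 q reached 10 or where a peak had to cover 50% of the window. They lay at Gata3 and Tead4. The Gata3 window at 57.7 kb ranked at percentiles 95.5, 75.0, 92.7 and 92.0 of the hairpin lists and was called in 1 library outside the Chd4 set, of the wild type CTCF line, at percentile 9.78. A Tead4 window 0.435 kb downstream of an internal start, in an intron, ranked at 79.1, 86.4, 77.1 and 15.1. It was also called in all 6 Chd8 libraries. The third lay -41.8 kb from a Tead4 start in an exon of Tulp3. The strongest window of the Gata3 start ranked at 99.0 and 96.1 with shluci, 92.0 and 45.6 with shRNA1 and 99.3 and 84.7 with shRNA2.

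With knockdown of Chd8 the hairpin and shluci values overlapped at 7 of the 10 loci. The locus peak number was higher at 2 genes, Cdx2 and Tead4, and lower at 1, Tfap2a, against 4.49% higher and 4.52% lower over protein-coding genes. Cdx2 had 5 and 14 peaks with shluci, 18 and 16 with shRNA1 and 20 and 17 with shRNA2. The 2 shluci values differed by more than the gap between the groups. Tead4 had 37 and 34, then 38 and 46, and 38 and 41. Tfap2a had 22 and 20, then 19 and 17, and 15 and 17. Among the related lists, 3 of 20 other trophoblast genes were higher and 0 lower, 0 and 1 of 12 TEAD-YAP genes, and 0 and 2 of 13 NuRD subunit genes. Without shluci replicate 2 the count of higher genes was 5, against 15.4% of coding genes, and without shluci replicate 1 that of lower genes was 2, against 14.9%. With lists at their deposited length no gene was higher and 1 was lower, against 1.33% and 8.97%. Among peaks whose -log10 q reached 10, 0 were higher and 0 lower, against 1.06% and 2.46%. With 25 kb either side 1 was higher and 0 lower, against 3.87% and 4.14%. In lists of equal length and with 50 kb either side, the bases under peaks were lower at Tfap2a alone and higher at none, against 0.853% and 0.829%. Tfap2a had 2524 and 3097 bp in shluci and 1884 to 2519 bp with the hairpins.

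Of 206 windows called in the Chd8 set 3 were gained and 2 lost, against 0.712% and 1.3% genome-wide. The gained ones lay in introns of Eif4b (46.3 kb from the Krt18 start), Cat (35.6 kb from an Elf5 start) and Taf3 (-60.9 kb from the Gata3 start). The lost ones lay -2.47 kb from a Tfap2c start and 12.0 kb from a Gata2 start. The number gained was 15 without shluci replicate 2, 6 without shRNA2 replicate 1, and 5 without shluci replicate 1 or shRNA1 replicate 2. The number lost was 9 without shluci replicate 1, 8 without shluci replicate 2, 4 without shRNA2 replicate 1 and 5 without shRNA2 replicate 2. Krt8 had no start peak in this set. Start peaks were gained or lost at none of the other 9 genes, against 0.27% and 0.301%. The bases covered at the starts were also higher or lower at none of them, against 2.02% and 1.74%.

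In serum-free medium, the locus peak number with IAA did not overlap that without at 2 genes, Elf5 and Hand1. Elf5 had 16 and 17 peaks without IAA and 12 and 12 with IAA. Hand1 had 13 and 13 without IAA and 17 and 15 with IAA. Over protein-coding genes 14.8% were lower and 12.7% higher, so 1 of 10 in each direction was not above the background. The other 8 loci overlapped, among them Cdx2 with 10 and 10 against 9 and 10, and Tead4 with 29 and 31 against 29 and 27. With lists at their deposited length 4 genes were lower and 0 higher, against 26.9% and 4.11%. Leaving out any 1 of the 4 libraries gave 2 higher genes, against 23.3% to 25.5% of coding genes, and leaving out any but control line without IAA replicate 2 gave 3 lower genes, against 25.8% to 27.4%. The bases under peaks were lower at Elf5 and higher at Tfap2a, Gata3, Gata2 and Hand1, against 9.45% and 27.5%.

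The bases covered at the starts also moved in both directions. They were lower with IAA at 2 genes, Elf5 and Krt8, and higher at 3, Cdx2, Tfap2c and Gata3, against 11.9% and 22.7% of coding genes. Elf5 had 612 and 1303 bp without IAA and 205 and 337 bp with IAA. Krt8 had 75 and 411 bp without IAA and 41 and 41 bp with IAA. Tfap2c had 1149 and 1179 bp without IAA and 1929 and 1489 bp with IAA. No start peak was gained or lost at any of the 10 genes, against 0.553% and 0.49%.

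In serum, 4 loci had fewer peaks with IAA and none had more, against 15.7% lower and 7.82% higher over protein-coding genes. Elf5 had 4 and 4 peaks without IAA and 2 and 2 with IAA. Hand1 had 9 and 8 without IAA and 5 and 4 with IAA. Gata2 had 7 and 9 against 6 and 5, and Gata3 had 11 and 11 against 10 and 5. The bases under peaks did not follow these counts. They were lower at none of the 10 genes and higher at 2, Cdx2 and Gata2, against 6.17% and 44.2%. Gata2 had 3108 and 2898 bp without IAA and 3415 and 3443 bp with IAA, and the IAA lists had wider peaks, with medians of 482 and 508 bp against 418 and 381 bp. The 4 calls of lower peak number also depended on the cut and on list length. Among peaks whose -log10 q reached 10, 0 genes were lower and 0 higher, against 1.97% and 20.3% of coding genes. The IAA lists were the longer ones as deposited (71773 and 82502 against 69153 and 59786 peaks), and at that length 0 genes were lower and 1 higher, against 4.2% and 22.2% of coding genes. The gene that was higher was Hand1, with 9 and 8 peaks without IAA and 11 and 11 with IAA, so its direction turned. Without IAA replicate 2, 7 genes were lower, against 27.8% of coding genes. The number higher was 1 without no-IAA replicate 2 and 2 without IAA replicate 1, against 17.3% and 19.2%.

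Peaks at 3 starts were lost with IAA in serum and none gained, against 0.729% and 0.749% of genes with a start peak in the set. Elf5 had 534 and 259 bp without IAA and 0 and 0 with IAA. Gata2 had 299 and 616 bp without IAA and Krt8 568 and 181 bp, and both had 0 and 0 with IAA. The loss at Elf5 also held in the deposited lists, with 0 and 0 bp. Covered bases were lower at these 3 genes and higher at none, against 6.68% and 34.7% of coding genes. In the deposited lists Gata2 regained 272 bp in IAA replicate 2 and Krt8 321 bp in IAA replicate 1. Covered bases at the starts were lower in both media at 2 of the 10 genes, Elf5 and Krt8, against 1.5% of coding genes. In lists of equal length the locus peak number was lower in both media at Elf5 alone, against 3.29%. The serum call, and with it this one, ended in the deposited lists, with 5 and 4 peaks at Elf5 without IAA and 3 and 4 with IAA, and among peaks whose -log10 q reached 10. At Hand1 it was higher in serum-free medium and lower in serum, against 1.59% of coding genes, in lists of equal length.

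**Figure D3:**
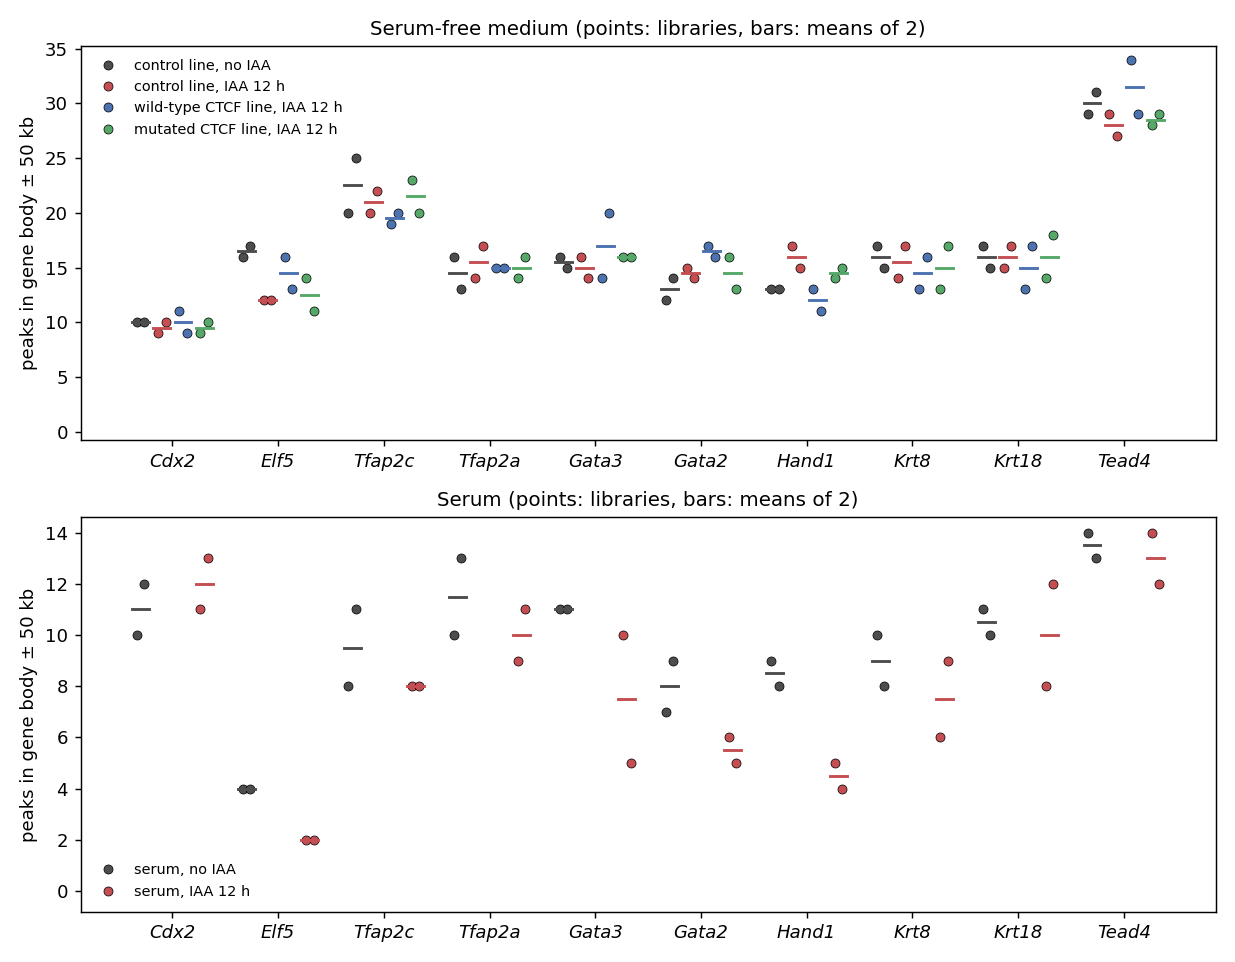
Number of peaks in the gene body with 50 kb either side, for the 10 genes in serum-free medium (top, 4 groups) and in serum (bottom, 2 groups); points are libraries and bars the means of 2. In these lists of equal length Elf5 drops with IAA in both media, from 16 and 17 to 12 and 12 and from 4 and 4 to 2 and 2, and Hand1 moves up in serum-free medium and down in serum; of these, the Elf5 drop in serum and both Hand1 moves did not hold in the deposited lists.

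Some of the windows lost at Elf5 held the CTCF consensus. Of the 26 windows with the CTCF consensus in the 10 loci, 4 lay at Elf5, and all 4 were lost with IAA in at least 1 medium. Over the 10 loci it was 9 of 26, or 34.6%, and genome-wide 28.8% of such windows. The Elf5 locus was singled out after its values were seen. Of the 4 matches, 3 are shown with 8 bases either side, 5′ to 3′ on the strand of the match, with the consensus in capitals. They lie at chr2:103439856-103439885 (plus strand, 1 mismatch), chr2:103445953-103445982 (minus, 0 mismatches) and chr2:103456802-103456831 (plus, 1 mismatch).
Elf5 site at 15.8 kb: cccaatggCCAGAAGGTGGCGCcagtagcg
Elf5 site at 21.7 kb: gtctgtgtCCACTAGAGGGCAGgatttgcc
Elf5 site at 32.5 kb: tccatgagCCAGCAGGTGTCACcctctagc
The distances are from the nearest Elf5 start to the centre of the window, and the last window lies in an intron of Cat, which codes for catalase. These 3 matches lay -20, 188 and 220 bp from the window centres, so in the last 2 the site was near the edge of the window.

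The window at 15.8 kb was called in 4 libraries of the series, 2 untreated ones in serum-free medium and 1 from each line with overexpressed CTCF. The windows at 21.7 kb and 32.5 kb were each called in both libraries without IAA and 1 of 2 with IAA in serum-free medium, and in 2 and 0 in serum. The fourth match lay 218 bp from the centre of a window 0.495 kb from an Elf5 start. In each medium that window was called in both libraries without IAA and in 0 with IAA, in serum-free medium in the control line. It was also called in both libraries of the wild type CTCF line and both of the mutated CTCF line. Elf5 start coverage was 258 and 1062 bp in the wild type CTCF line and 290 and 1311 bp in the mutated CTCF line. Both ranges overlapped those of the control line with and without IAA.

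**Figure D4:**
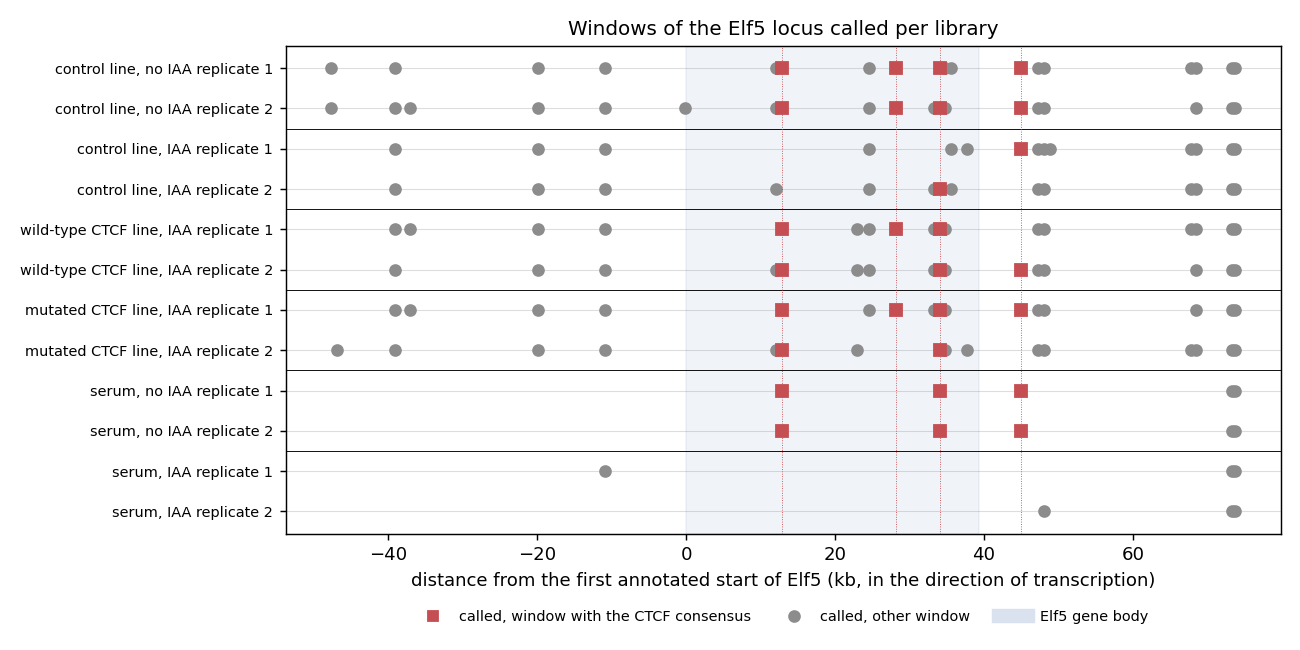
Windows of the Elf5 locus that each library of the CTCF lines and the serum set called, by distance from the first annotated Elf5 start in kb; red squares are windows with the CTCF consensus, grey circles other windows and the shaded band the gene body. Both serum libraries without IAA hold 3 red squares and both with IAA hold 0, and in serum-free medium the control line holds 4 in each library without IAA.

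Of the 234 windows called in serum-free medium 8 were lost, against 4.42% genome-wide, and 2 of them held the consensus, both at Elf5. These are 2 of 23 consensus windows called, or 8.7%, against 26.0% genome-wide. In serum 11 of 143 windows were lost, against 4.5%. Of them 8 held the consensus, out of 22 consensus windows called, or 36.4% against 24.5%. Among peaks whose -log10 q reached 10 none of the windows was lost in serum, and no genome-wide share is given at that cut. The 8 were 3 at Elf5, 2 at Hand1, 2 at Tead4 and the Krt8 start window at -0.102 kb. The Krt8 window was called in 4 libraries of the series, among them both in serum without IAA. Of the 4 consensus windows at Cdx2 only 1 was called in both libraries without IAA in each medium and so could be lost, and it was not. The Cdx2 window at 13.9 kb was called in 22 of 24 libraries.

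Windows other than CTCF sites also moved. A window -17.5 kb from a Tead4 start was lost with IAA in both media and was called in both wild type CTCF libraries and in 1 with mutated CTCF. It lies in a repeat: 84.7% of its central 300 bases are soft-masked, and its words of 30 bases occur up to 856 times in the genome. The authors' handling of reads with several positions is not given in the sources used here. In all, 2 of the 70 windows that all 4 libraries without IAA called were lost in both media, or 2.86%, against 3.04% genome-wide. Of the 8 windows lost in serum-free medium, 3 were called in each wild type CTCF library and 2 in each mutated CTCF library, against 36.6% and 28.1% genome-wide.

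Gained windows were 6 in serum-free medium and 6 in serum, against 3.66% and 4.94% genome-wide. In serum-free medium the strongest was 0.966 kb from a Gata2 start in an intron, followed by a window 37.1 kb from the Krt18 start and one -18.3 kb from the Gata3 start. In serum the strongest was -11.7 kb from the basic-annotation Gata3 start, just upstream of the 5′ end of the Gata3 gene model at position 9890034, at a mean percentile of 90.9 in the IAA lists. It was also called in both IAA libraries of each of the 3 CTCF lines and in 1 of 2 without IAA. Cdx2 held 3 of the 6 windows gained in serum, 1.22 kb, 53.5 kb and -25.7 kb from its start. The counts moved with single libraries: in serum-free medium leaving 1 out gave 12 to 19 gained and 13 to 16 lost windows. In serum the number gained was 10 without no-IAA replicate 1, 13 without IAA replicate 1 and 14 without IAA replicate 2, and the number lost 24 without no-IAA replicate 1, 18 without no-IAA replicate 2 and 19 without IAA replicate 1.

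Among the related lists in serum-free medium, 3 of 20 other trophoblast genes had lower locus peak numbers with IAA and 0 higher, 1 and 0 of 12 TEAD-YAP genes, and 3 and 1 of 13 NuRD subunit genes. In serum the numbers were 2 lower and 3 higher, 5 and 1, and 4 and 0. Over coding genes the shares were 14.8% lower and 12.7% higher in serum-free medium and 15.7% and 7.82% in serum. The embryonic stem cell markers had 4 lower and 0 higher of 12 in serum-free medium and 5 and 0 in serum. The fibroblast or feeder markers had 2 lower and 0 higher in each medium, and the primitive endoderm markers 1 and 1 in serum-free medium and 2 and 3 in serum.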

How the data were processed

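ATAC-seq of 24 libraries in 12 groups of 2 was analysed from the peak lists the authors deposited. Per the submitters' processing notes, Trim Galore, Bowtie2, MACS2 and deepTools were used, with the build mm10, which shares its chromosome coordinates with GRCm38. Versions, settings and read filters are not given in the sources used here. Each deposited peak carries the authors' fold enrichment over background, its -log10 p and -log10 q, and an integer score. The lowest deposited -log10 q per list was 1.30 to 1.31. Each sample has its own list.

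Lists were shortened, by the deposited -log10 p, to the shortest list of their set: 120137 peaks in the CTCF lines, 80619 in the Chd4 set, 135410 in the Chd8 set and 59786 in the serum set. A percentile is a peak's rank in its deposited list, before shortening. A longer list that was cut further therefore keeps only higher percentiles. Windows of 501 bp around summits were kept when called by at least 2 libraries (233706 of 405819). A window was gained when all treated and no reference libraries called it, and lost in the opposite case. The 10 genes, the windows named (up to 3 per comparison and direction by percentile, and the strongest at each start) and the lists were chosen with earlier results of these data known. Read numbers are unknown, so no interval for depth is given. Scripts were tested on simulated data. Python 3.11.15, numpy 2.4.6, pandas 2.3.3, pysam 0.24.0, samtools 1.23.1 and matplotlib 3.10.9 were used. Alternatives were lists at deposited length, a -log10 q of at least 10, other distances and overlaps, a replicate block and leaving out each library. The sequence of 1 window is not reported here.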

Additional observations from a re-analysis of the deposited data

Results flagged for a closer look

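In lists of equal length, the locus of Hand1 moved in opposite directions in the 2 media. The mean peak number with IAA minus that without was 3 in serum-free medium (13 and 13 against 17 and 15) and -4 in serum (9 and 8 against 5 and 4). All libraries of a comparison moved the same way, and 1.59% of protein-coding genes were higher in serum-free medium and lower in serum. In the deposited lists the values were 15 and 16 against 17 and 16 in serum-free medium, which overlap, and 9 and 8 against 11 and 11 in serum, which turns the direction there. Both calls were also lost with a -log10 q of at least 10, and the serum-free one with 25 kb either side. The difference between the media was not tested.

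The bases covered at the Gata3 start moved in opposite directions with the 2 Chd4 hairpins. The mean minus that of shluci was -133 bp with shRNA1 (73 and 182 bp) and 196 bp with shRNA2 (381 and 532 bp), around shluci values of 213 and 308 bp. Taken alone, shRNA1 was lower at 45.7% of protein-coding genes and shRNA2 higher at 4.87%. The 2 hairpins share their shluci libraries, and the difference between them was not tested.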

How the results depend on the processing

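Of 78 alternative values other than leaving out 1 library, 31 stayed within 1.5 times the main count and 47 did not. With a -log10 q of at least 10, Chd4 knockdown gave 0 gained and 4 lost windows and 3 lower genes, against 38% of coding genes. Chd8 knockdown gave 0 gained and 1 lost windows with 0 higher and 0 lower genes, against 1.06% and 2.46%. IAA gave 0 higher and 4 lower genes in serum-free medium, against 2.76% and 32.8%. In serum it gave 2 gained and 0 lost windows with 0 lower genes, against 1.97%. At this cut 0 genes had a start peak in all 24 libraries. With windows covered by 50% or more, Chd4 gave 0 gained, Chd8 0 gained and 0 lost, serum-free medium 3 gained and serum 5 lost. With 25 kb either side, Chd4 gave 1 gained and 8 lost windows and 3 lower genes, against 20% of coding genes. Chd8 gave 1 gained window with 1 higher and 0 lower genes, against 3.87% and 4.14%. Serum-free medium gave 0 higher and 2 lower genes, against 12% and 13%, and serum gave 3 gained windows. With lists at deposited length, Chd4 gave 4 lower genes, Chd8 1 lost window and 0 higher genes, serum-free medium 13 lost windows with 0 higher and 4 lower genes, and serum 11 gained windows with 1 higher and 0 lower genes, and 4 genes had a start peak in all libraries. That number was 1 within 500 bp and 1 with the start of the gene model alone. Chosen after seeing the data, libraries numbered 1 alone gave 6 gained and 36 lost windows and 1 higher gene for Chd4, and those numbered 2 alone 5, 40 and 1. Where fewer libraries were used the rule asked for fewer calls; elsewhere the cause was not tested.

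Leaving out 1 library gave, for Chd4, 3 to 4 gained and 13 to 28 lost windows with 0 to 1 higher and 7 to 8 lower genes. For Chd8 it gave 4 to 15, 2 to 9, 2 to 5 and 1 to 2. In serum-free medium it gave 12 to 19, 13 to 16, 2 to 2 and 1 to 3. In serum it gave 9 to 14, 15 to 24, 0 to 2 and 5 to 7. Genes with a start peak in all libraries were 2 to 3. A replicate block, comparing libraries by number, gave 1 higher gene for Chd4 and 1 for serum and changed no other count by over 1.5 times. List length went with the number in the Chd4 set. Same-numbered libraries did not deviate together by over 0.1 in every pair: correlations of deviations ran from -0.0891 to 0.143 (CTCF lines), from -0.0292 to 0.0695 (Chd4) and from -0.124 to 0.0457 (Chd8), with -0.0102 in serum.

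Peak calls are not read counts: a site just under the cut in 1 library reads as absent, and narrow peaks in the Chd4 and Chd8 sets cover fewer bases at the same number of calls. List length, and not depth, was equalised.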
